A study of Gossypium hirsutum with 6 samples.

Results

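The genes around *MML3* on chromosome A12 were taken as the rows of the deposited table with IDs from Gh_A12G1425 to Gh_A12G1580, which are numbered along the chromosome, without *MML3* (Gh_A12G1503) and *MML4* (Gh_A12G1504) themselves. Of the 154 IDs left in this range, 138 were listed among the 65894 genes of the table, 68 before *MML3* and 70 after *MML4*, and the other 16 IDs were not analysed here. The choice of the neighbours used place in the ID order only and none of their measured values. The study had already reported *MML3* and *MML4*, at the centre, as lower in *Xu142fl* in these data. RNA came from ovules of field-grown upland cotton (*Gossypium hirsutum*), with ovules collected 3 days and 1 day before anthesis (−3 and −1 DPA) mixed in each library. There were 3 libraries of Xu142, the wild type, which makes fiber, and 3 of *Xu142fl*, its fiberless mutant, and the labels name no transgene and no treatment in either line. The libraries hold whole ovules, so fewer cells of a type and less RNA per cell cannot be told apart.

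*MML3*, also known as *MYB25-like*, and *MML4* encode MIXTA-like R2R3-MYB transcription factors, a class of MYB proteins that act in the outgrowth of epidermal cells. Cotton fibers are single cells that grow out of the ovule epidermis, as short fuzz and long lint. The A12 copy of *MML3* is the gene of the dominant naked seed mutant *N1*, and the D12 copy of *MML4* was mapped as the *li3* gene of *Xu142fl*. The comparison of the neighbours asks whether genes beside *MML3* and *MML4* on A12 differed between the lines together with them, or whether the difference was limited to single genes. The deposited table pairs none of the neighbours with a gene name, and RefSeq's genes of the Gossypium_hirsutum_v2.1 assembly use other identifiers, which matched 0 of the 65894 IDs in the table, so the genes are given by ID, with neither a role nor coordinates, and distances are counted in IDs.

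Most of the neighbourhood was expressed at about the same level in both lines. Values are FPKM, which are fragment numbers scaled to transcript length and to the mapped reads of the library. The line effect is a log2 fold change of *Xu142fl* against Xu142 on the scale of log2(FPKM + 0.1), which understates the change of low genes. A gene passed the test if its p from limma, adjusted by Benjamini-Hochberg over all 56395 genes averaging 0.1 FPKM or more, was 0.05 or lower, and was called if it also changed 2-fold or more. Of the 138 genes, 123 reached that mean and were tested. Limma called 3 of them, all lower in *Xu142fl*, where 6.14% of all tested genes were called (4.47% lower and 1.67% higher). The 3 are 2.44% of the genes tested here, and none of the 123 was called as higher. With the stricter limit of 0.001 that the study set, again with 2-fold or more, 0 of the 123 were called by limma, against 0.750% of all tested genes, and 7 had an unadjusted p of at most 0.05 with a 2-fold change, all 7 lower. These are 5.69% of the 123, where 8.96% of all tested genes met the same limits (6.21% lower and 2.75% higher). With the fold limit set aside, 15 of the 123 passed the test, 8 higher and 7 lower, which is 12.2% against 13.9% of all tested genes (5.13% higher and 8.77% lower). Without the filter on low FPKM, limma called 4 of the 138, against 5.22% of all genes.

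Library facts bear on these counts. The median gene of a library lay between 3.38 and 4.01 FPKM, and the table holds no read counts, so no counting error can be given. On the second principal component of all tested genes, which held 23.4% of the variance, Xu142 replicate 2 and *Xu142fl* replicate 1 stood apart from the remaining 4 libraries. Without *Xu142fl* replicate 1, limma called 6 of the genes (8.17% of all genes tested) and 23 passed the test. Without both libraries that stood apart, 5 were called (8.28% of all genes tested) and 24 passed. Leaving out Xu142 replicate 3 left 0 called and 3 that passed, and leaving out Xu142 replicate 1 or 2 or *Xu142fl* replicate 2 or 3 left 2 called each, with 4, 7, 4 and 6 that passed. In these fits the share of all genes called also fell, to 3.44% without Xu142 replicate 3 and to 3.51%, 5.24%, 3.49% and 4.50% in the order given. For the fits with libraries left out, the share of all genes that passed was not worked out. The numbers of neighbours that passed in them thus have no background beside them. The line labels were checked with *MML3*. Its D12 copy (Gh_D12G1628) measured 61.49, 54.55 and 51.83 FPKM in Xu142 against 0.18, 0.37 and 0.28 FPKM in *Xu142fl*, each in the order of replicates 1 to 3, which is kept throughout.

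The neighbourhood held genes from listed at 0 in most libraries to a mean of 193 FPKM. Of the 138 genes, 15 had a mean under 0.1 FPKM over the 6 libraries, 20 a mean from 0.1 to 1, 59 from 1 to 10, 39 from 10 to 50 and 5 at least 50 FPKM. A mean of at least 1 FPKM was reached by 74.6% of these genes and by 69.2% of all genes in the table. Summed over the 138 genes, FPKM came to 1646, 1594 and 1642 in Xu142 and 1563, 1624 and 1613 in *Xu142fl*. The ranges of the lines overlapped. The median gene of the neighbourhood had 5, 4.70 and 5.05 FPKM in Xu142 and 4.44, 5.03 and 5.33 FPKM in *Xu142fl*, again with overlap. The number of genes above 0 was 128 to 132 in the Xu142 libraries and 126 to 133 in the *Xu142fl* libraries. In blocks of 10 IDs counted outward from *MML3* and *MML4*, the median gene averaged from 1.1 to 9.97 FPKM.

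**Figure D1:**
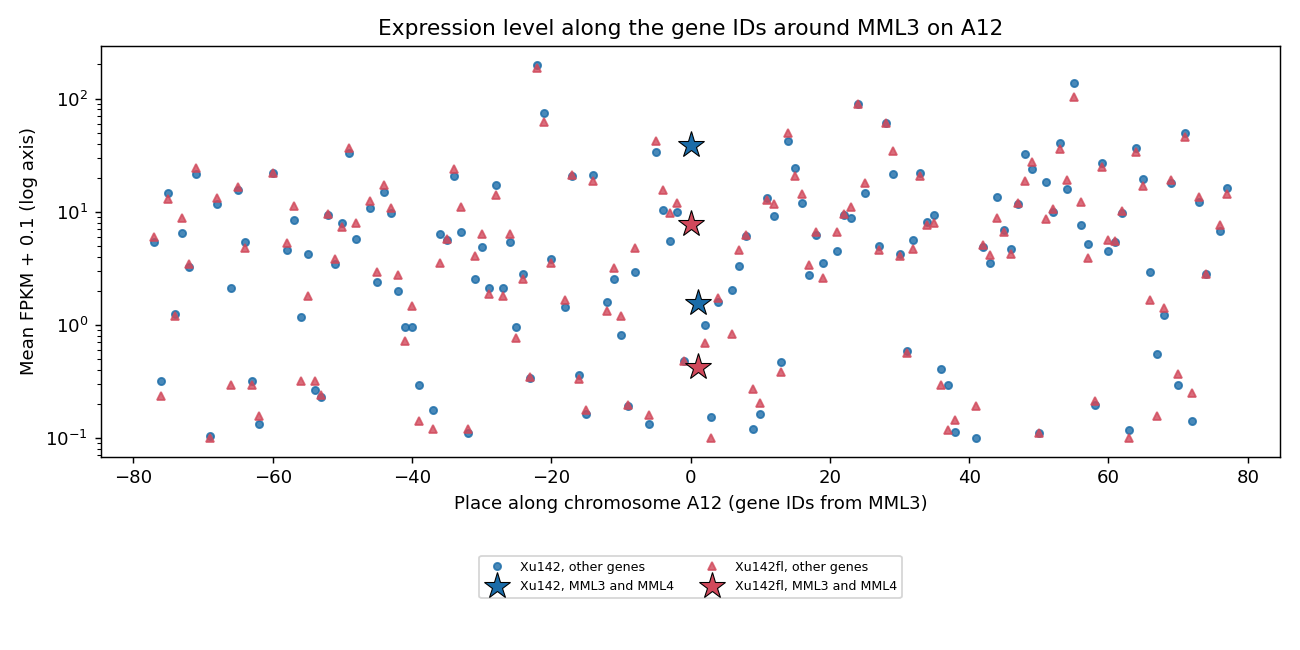
Mean FPKM + 0.1 of the 3 libraries of each line (log axis) against the place of the gene in IDs from *MML3*, for the 138 neighbours (circles, Xu142, and triangles, *Xu142fl*) and for *MML3* and *MML4* (stars). The symbols of the lines nearly coincide for most neighbours, while *MML3* lay at 38.8 FPKM in Xu142 and 7.69 FPKM in *Xu142fl*.

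The 5 most abundant neighbours did not differ by more than 1.35-fold in mean FPKM. Gh_A12G1481 had 188.51, 216.53 and 192.87 FPKM in Xu142 and 212.21, 186.51 and 162.37 FPKM in *Xu142fl*, and the lines overlapped. Its log2 fold change was -0.10 (95% interval of limma -0.38 to 0.19, adjusted p = 0.63). Gh_A12G1527 had 93.12, 82.35 and 91.45 FPKM in Xu142 and 69.44, 92.49 and 104.28 FPKM in *Xu142fl*. Both the lowest and the highest of its values were thus in *Xu142fl*, and its interval ran from -0.39 to 0.34. Gh_A12G1531 had means of 60.4 ± 2.81 and 60.5 ± 8.90 FPKM (SD, n = 3) and an interval of -0.29 to 0.27. Gh_A12G1482 had 72.27, 78.38 and 73.01 FPKM in Xu142 and 63, 69.46 and 54.87 FPKM in *Xu142fl*, with no overlap between lines, and did not pass the test (limma adjusted p = 0.15). The abundant gene that passed was Gh_A12G1558. It had 150.42, 119.57 and 143.32 FPKM in Xu142 and 104.07, 99.89 and 102.77 FPKM in *Xu142fl*. Every *Xu142fl* library lay below every Xu142 library, and the gene fell by 0.42 on the log2 scale (standard error 0.10, limma adjusted p = 0.040). With 1 library left out, it passed only without Xu142 replicate 2 or *Xu142fl* replicate 1, and reached 0.15 in the others.

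*MML3* stood out from this background by the size of its difference. It had 44.37, 35.25 and 36.67 FPKM in Xu142 and 7.76, 6.96 and 8.34 FPKM in *Xu142fl*, a log2 fold change of -2.32 (95% interval -2.61 to -2.03, limma adjusted p = 0.00014). Ranked by FPKM with the 138 neighbours, *MML3* was 7th, 10th and 9th in the Xu142 libraries and 53rd, 59th and 54th in the *Xu142fl* libraries. *MML4* had 1, 2.04 and 1.3 FPKM in Xu142 and 0.46, 0.29 and 0.23 FPKM in *Xu142fl*, and its rank moved from between 92nd and 105th to between 106th and 114th. Its log2 fold change was -1.84 (95% interval -2.66 to -1.01, limma adjusted p = 0.018). With 1 library left out, *MML4* passed the test without Xu142 replicate 1 or 2 or *Xu142fl* replicate 1. It did not pass without Xu142 replicate 3 or *Xu142fl* replicate 2 or 3 (limma adjusted p of 0.070, 0.074 and 0.055). With a block for the replicate number it did not pass either (0.073), and on the scale of log2(FPKM + 1) its change was -0.86.

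Among the 123 neighbours tested, only Gh_A12G1437 had a log2 fold change below that of *MML3*. Gh_A12G1437, Gh_A12G1447 (-1.87) and Gh_A12G1570 (-1.86) lay below the value of *MML4*. Gh_A12G1570, chosen after its values were seen, had a mean of 0.255 FPKM over the 6 libraries and did not pass (limma adjusted p = 0.085). In 117 of the 123, the 95% interval of the log2 fold change lay wholly above the value of *MML3*. For all tested genes this share was not worked out. In 88 of the 123 (71.5%) the interval lay wholly between -1 and 1, against 61.8% of all tested genes. These intervals are those of limma for single genes and are not adjusted for the number of genes. A log2 fold change under 0.5 in size was found in 99 of the 123 genes (80.5%), against 69.8% of all tested genes. The median log2 fold change was 0.01 over the neighbours and 0.01 over all tested genes, and the range from the 5th to the 95th percentile was -1.20 to 0.60 against -1.25 to 0.87. No test of these shares was made, since neighbouring genes are not replicates. The neighbours were also somewhat less variable, with a median SD between replicates of 0.19 on the log2 scale against 0.23 for all tested genes.

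**Figure D2:**
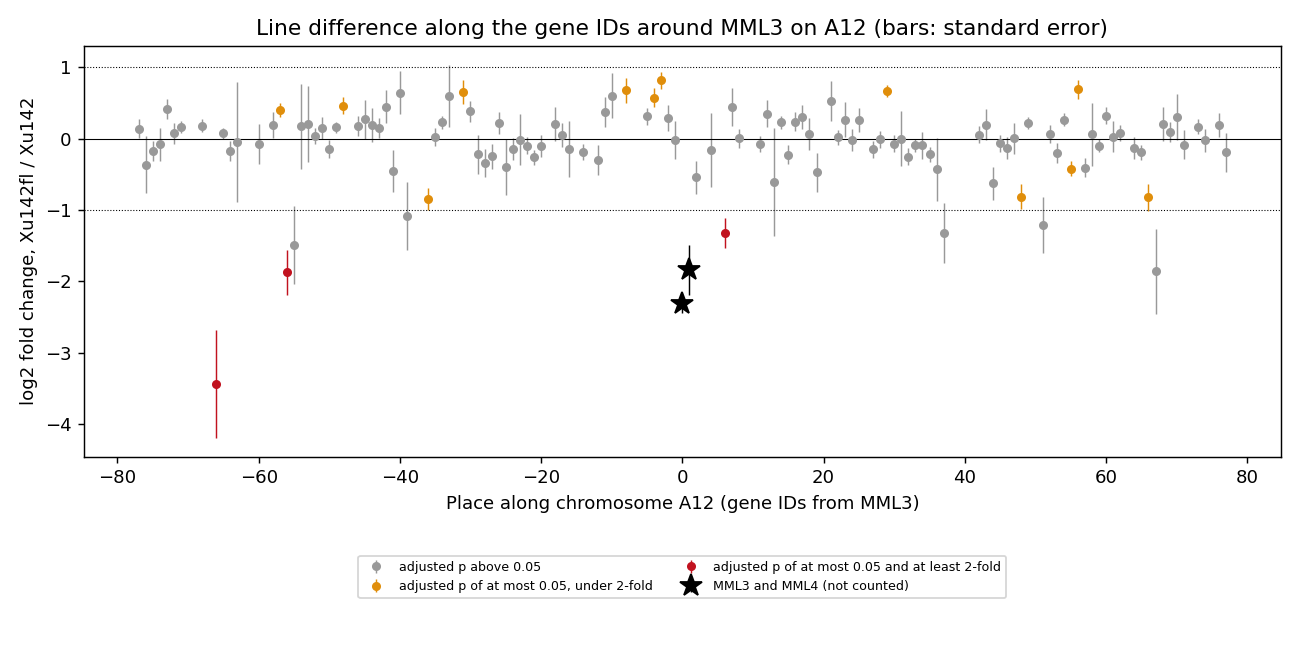
Log2 fold change of *Xu142fl* against Xu142 with its standard error for the 123 tested neighbours, by place in IDs from *MML3*; dotted lines mark a 2-fold change. Only 3 neighbours (red) passed the test with at least a 2-fold change, 12 (orange) passed it below 2-fold, and *MML3* and *MML4* (stars) lay at -2.32 and -1.84.

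The genes immediately before *MML3* were as high in *Xu142fl* as in Xu142 or higher. The nearest, Gh_A12G1502, had 0.36, 0.38 and 0.41 FPKM in Xu142 and 0.36, 0.34 and 0.43 FPKM in *Xu142fl*. Its lines overlapped, and the interval of its log2 fold change, -0.66 to 0.61, holds 0 and leaves out the change of *MML3*. Gh_A12G1501 had 10.68, 7.85 and 10.69 FPKM in Xu142 and 9.83, 11.65 and 14.32 FPKM in *Xu142fl*, also with overlap (limma adjusted p = 0.34). Gh_A12G1500 had 4.85, 5.68 and 5.84 FPKM in Xu142 and 9.5, 10.46 and 9.08 FPKM in *Xu142fl*. This gene, 3 IDs before *MML3*, rose by 0.82 on the log2 scale (standard error 0.12, limma adjusted p = 0.0077), and its mean was 1.77 times as high in *Xu142fl*. It still passed whichever of the 6 libraries was left out (adjusted p of 0.012 to 0.047). Its increase was the largest among the 123 neighbours and remained under the 2-fold limit. Gh_A12G1499 had 10.48, 9.48 and 10.55 FPKM in Xu142 and 13.1, 15 and 17.8 FPKM in *Xu142fl*, and rose by 0.57 (standard error 0.13, limma adjusted p = 0.032). When 1 library was left out, it passed only without *Xu142fl* replicate 1 (0.013), and reached 0.11 in the others. Gh_A12G1498 had 33.6 ± 4.20 and 41.7 ± 3.87 FPKM (SD, n = 3), with no overlap between lines, and did not pass (limma adjusted p = 0.13).

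The genes after *MML4* were weaker. Gh_A12G1505 had 0.82, 0.98 and 0.91 FPKM in Xu142 and 0.62, 0.52 and 0.63 FPKM in *Xu142fl*. The lines did not overlap, but the difference did not pass the test (log2 fold change -0.54, standard error 0.23, limma adjusted p = 0.17). Gh_A12G1506 was listed at 0.16 FPKM in Xu142 replicate 1 and at 0 in the remaining 5 libraries, and was below the filter. Gh_A12G1507 had 1.24, 1.67 and 1.57 FPKM in Xu142 and 1.04, 0.65 and 3.19 FPKM in *Xu142fl*, where replicate 3 was the highest of all 6 and replicate 2 the lowest (limma adjusted p = 0.86). Gh_A12G1509, 6 IDs after *MML3*, was the only called gene among the 5 IDs on each side. It had 1.89, 1.76 and 2.2 FPKM in Xu142 and 0.68, 0.84 and 0.65 FPKM in *Xu142fl*. No *Xu142fl* library reached any Xu142 library, and the mean was 2.70 times as high in Xu142 (log2 fold change -1.32, standard error 0.21, limma adjusted p = 0.0097). With 1 library left out it failed the test only without Xu142 replicate 3 (0.058).

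**Figure D3:**
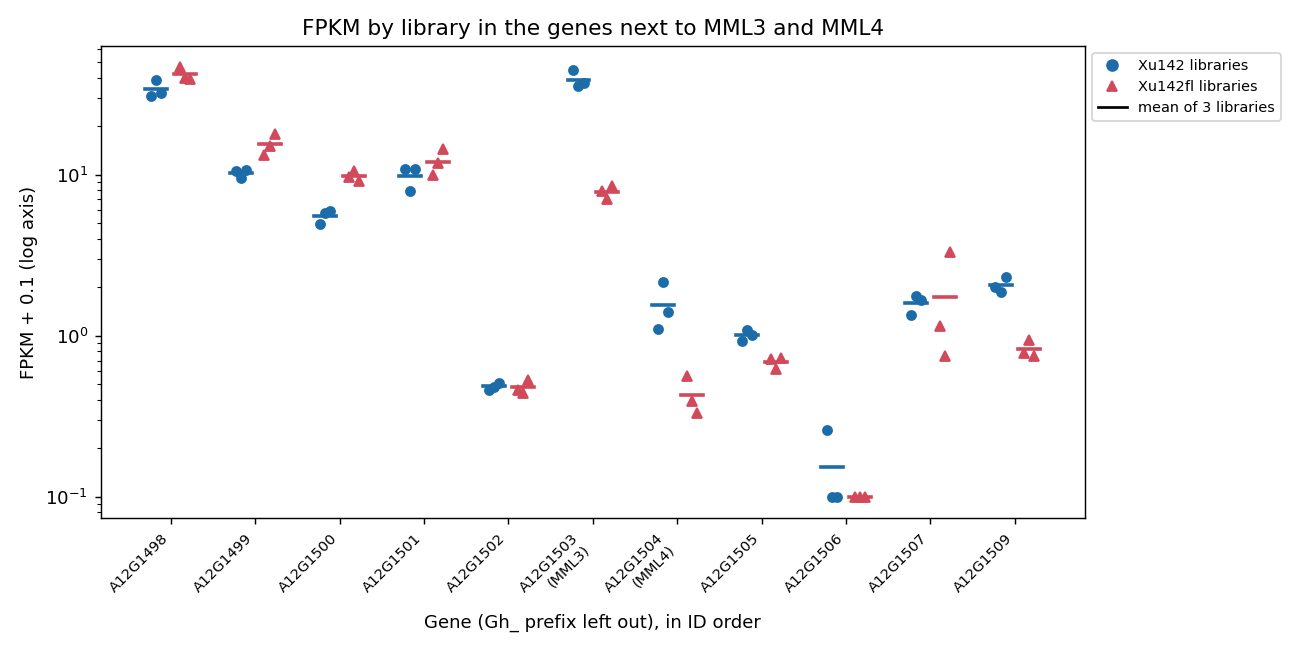
FPKM + 0.1 (log axis) in each library for *MML3*, *MML4* and the listed genes among the 5 IDs on each side, in ID order, with circles for Xu142, triangles for *Xu142fl* and a bar at the mean of each line. The lines separate downward in *MML3*, *MML4*, Gh_A12G1505 and Gh_A12G1509, the last at 1.95 against 0.723 FPKM on average. They separate upward in Gh_A12G1498, Gh_A12G1499 and Gh_A12G1500, the last at 5.46 against 9.68 FPKM. Gh_A12G1498 and Gh_A12G1505 did not pass the test.

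The other called genes lay far from *MML3*, 66 and 56 IDs before it. Gh_A12G1437 had 2.47, 1.45 and 2.07 FPKM in Xu142 and was listed at 0, 0.58 and 0 FPKM in *Xu142fl*. *Xu142fl* replicate 2 was thus the only mutant library in which it was detected. Its log2 fold change was -3.44 (standard error 0.75, limma adjusted p = 0.028), a value that depends on the pseudocount because of the values at 0. It was -1.35 with a pseudocount of 1 (limma adjusted p = 0.011) and -5.65 with 0.01, where the gene was no longer called (0.060). It also did not pass without *Xu142fl* replicate 3 (0.081) or without Xu142 replicate 1, 2 or 3 (0.10, 0.061 and 0.10). Gh_A12G1447 had 0.79, 1.01 and 1.41 FPKM in Xu142 and 0.29, 0.18 and 0.18 FPKM in *Xu142fl*, with no overlap. Its mean was 4.94 times as high in Xu142 (log2 fold change -1.87, standard error 0.32, limma adjusted p = 0.012), and it did not pass without *Xu142fl* replicate 2 or Xu142 replicate 3 (at most 0.061). Its mean over the 6 libraries was under 1 FPKM, and it was chosen here after its values were seen.

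The next ID, Gh_A12G1448, had 4.17, 2.98 and 5.12 FPKM in Xu142 and 3.33, 1.17 and 0.62 FPKM in *Xu142fl*. *Xu142fl* replicate 1 lay within the range of Xu142, the other mutant libraries below it, and the gene did not pass with all libraries (limma adjusted p = 0.12). Without *Xu142fl* replicate 1 its adjusted p was 0.010. Gh_A12G1554 showed the same order in the mutant, with 13.48, 8.06 and 4.23 FPKM against 21.62, 18.76 and 14.56 FPKM in Xu142 (limma adjusted p = 0.087, and 0.015 without *Xu142fl* replicate 1). In Gh_A12G1470 that library was low, with 4.7 FPKM against 14.06 and 13.93 FPKM in *Xu142fl* replicates 2 and 3, while Xu142 had 7.79, 4.63 and 7.28 FPKM (limma adjusted p = 0.41, and 0.021 without it). These 3 genes, chosen after their values were seen, made the difference between 3 and 6 called genes when *Xu142fl* replicate 1 was left out.

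Below 2-fold, 12 genes passed the test, of which 8 rose and 4 fell in *Xu142fl*. The values of the lines were separate in each of these genes. This adds little to the test, since the same values gave the p by which the genes were picked. How often the lines were separate among all genes that passed was not worked out. Apart from Gh_A12G1499, Gh_A12G1500 and Gh_A12G1558, the 12 genes were chosen after their values were seen. The firmest was Gh_A12G1532, with 20.91, 22.58 and 21.36 FPKM in Xu142 and 31.87, 36.31 and 35.02 FPKM in *Xu142fl*. It rose by 0.67 on the log2 scale (standard error 0.09, limma adjusted p = 0.0046) and still passed whichever of the 6 libraries was left out. Gh_A12G1559 had 7.81, 6.23 and 8.51 FPKM in Xu142 and 12.05, 11.94 and 12.29 FPKM in *Xu142fl*, and rose by 0.69 (limma adjusted p = 0.019, and up to 0.078 with 1 library left out). It lies beside the lower Gh_A12G1558, so that successive IDs went opposite ways. The remaining 4 that rose, Gh_A12G1446, Gh_A12G1455, Gh_A12G1472 and Gh_A12G1495, had log2 fold changes of 0.40, 0.46, 0.65 and 0.68, and each of them passed with 1 library left out only when that was *Xu142fl* replicate 1.

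On the lower side, Gh_A12G1551 had 35.22, 33.67 and 28.59 FPKM in Xu142 and 22.82, 18.73 and 14.58 FPKM in *Xu142fl*, and fell by 0.81 on the log2 scale (limma adjusted p = 0.026). Gh_A12G1467 had 6.04, 5.72 and 6.91 FPKM in Xu142 and 3.96, 2.99 and 3.38 FPKM in *Xu142fl*, and fell by 0.84 (limma adjusted p = 0.016). Gh_A12G1569 had 2.37, 3.34 and 2.77 FPKM in Xu142 and 1.67, 1.4 and 1.56 FPKM in *Xu142fl*, and fell by 0.82 (limma adjusted p = 0.034). Of the 6 libraries left out in turn, they still passed without 2, 3 and 1 of them. None of the 3 reached a 2-fold change, and they lay 48 IDs after, 36 IDs before and 66 IDs after *MML3*.

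**Figure D4:**
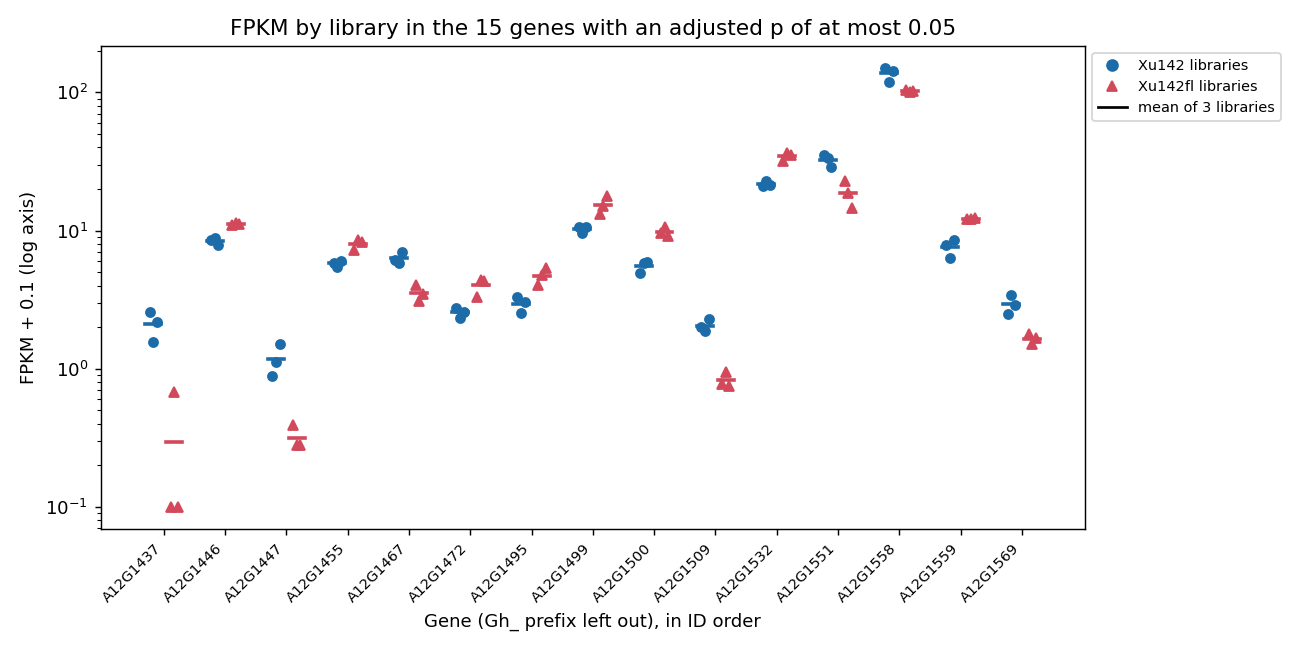
FPKM + 0.1 (log axis) in each library of the 15 neighbours that passed the test, in ID order, with circles for Xu142, triangles for *Xu142fl* and a bar at the mean of each line. Of these genes, 8 were higher and 7 lower in *Xu142fl*, and Gh_A12G1558 and the next ID, Gh_A12G1559, went opposite ways.

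Along the ID order, the direction of the line effect changed often. Of the 123 tested neighbours, 63 had a positive and 60 a negative log2 fold change. Among the 99 pairs of tested genes with successive IDs, 53 (53.5%) had the same sign, against 52.0% of the 38551 such pairs on all chromosomes. In 1 of the 99 pairs, Gh_A12G1499 with Gh_A12G1500, both genes passed the test in the same direction (1.01%, against 1.50% over all chromosomes), and no pair was called together (0.436% over all chromosomes). The longest stretch of 1 sign held 8 tested genes, Gh_A12G1533 to Gh_A12G1540, all with negative log2 fold changes, of which none passed the test. A stretch of 7 with positive values ran from Gh_A12G1492 to Gh_A12G1501 and held 3 genes that passed (Gh_A12G1495, Gh_A12G1499 and Gh_A12G1500). The next stretch held 4 tested genes with negative values, from Gh_A12G1502 to Gh_A12G1509, and flanked *MML3* and *MML4* on both sides. Of these 4, Gh_A12G1509 passed, and Gh_A12G1502 was close to 0 at -0.02.

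In blocks of 10 IDs counted outward from *MML3* and *MML4*, the median log2 fold change was between -0.24 and 0.23 in 15 of 16 blocks. The exception was the block that ends at *MML3*, with a median of 0.57 over 7 tested genes, of which 6 were positive and 3 passed as higher. This block was 1 of 16, and its difference from the others was not tested. The first block after *MML4* had a median of -0.12 over 6 tested genes. The block from 31 to 40 IDs after *MML4* was negative in all 6 tested genes, with a median of -0.24 and none that passed. Over each whole side, the median was 0.08 over the 61 tested genes before *MML3* and -0.02 over the 62 after *MML4*. The number that passed was 9 before (14.8%, 6 higher and 3 lower) and 6 after (9.68%, 2 higher and 4 lower). Of all tested genes, 13.9% passed (5.13% higher and 8.77% lower). The difference between the sides was not tested, since it was read from genes and not from samples.

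Lines without overlap, which do not rest on the test, gave a like picture. In 39 of the 123 tested neighbours (31.7%) the 3 values of 1 line lay all above those of the other, 21 higher and 18 lower in *Xu142fl*, where 35.0% of all tested genes showed no overlap (15.6% higher and 19.5% lower). Of the 15 genes below the filter, whose highest value was 0.27 FPKM, 1 had no overlap. This was Gh_A12G1575, at 0.06, 0.04 and 0.02 FPKM in Xu142 and 0.19, 0.1 and 0.16 FPKM in *Xu142fl*, too low for a fold change to be read. It was chosen after its values were seen. The share without overlap among all genes below the filter was not worked out, so this count has no background beside it. No neighbour was listed at 0 in every library of 1 line and above 0 in every library of the other.

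For comparison, in the rest of chromosome A12, 118 of 1947 tested genes were called (6.06%), 23 higher and 95 lower, and 14.5% passed the test. In the window of the same width around the D12 copy of *MML3* (Gh_D12G1628), without that gene and the next ID, 4 of 116 tested genes were called (3.45%), 2 higher and 2 lower, and 20 passed (17.2%). The A12 and D12 windows held 3 and 4 calls, numbers too small to set apart, and no test between them was made. The IDs of the windows were not paired as gene copies here.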

How the data were processed

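After filtering, reads were placed on the TM-1 genome by the authors, with Bowtie2 for the known genes and, for new transcripts, with HISAT2 (version 2.1.0 in the submitters' processing notes) and StringTie, and RSEM gave the expression levels. The authors deposited FPKM with 2 decimals. No read counts come with them and no scaling across libraries is stated, so depth per gene is unknown. Where A and D copies are nearly identical, RSEM splits the reads they share, and their values are uncertain. All 6 columns were matched to libraries by title. No pair of libraries had identical values above 0 in more than 1.91% of the genes.

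Lines were compared on log2(FPKM + 0.1) for genes averaging 0.1 FPKM or more, with limma 3.58.1 in R 4.3.3 (intensity trend, Benjamini-Hochberg adjustment over all tested genes, Xu142 and *Xu142fl* as groups). DEGseq, which the study used, needs read counts and was not run.

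The genes and lists were chosen with earlier results of these data known. Genes were named by rule: called genes averaging 1 FPKM or more (at most 10 in each direction), the 5 IDs on each side of *MML3* and *MML4*, the 5 most abundant genes, genes at 0 in 1 line alone and genes called at 0.001. Others are marked as chosen after their values were seen. Alternatives were pseudocounts of 1 and 0.01, no filter or one at 1 FPKM, scaling by median ratios or quantiles, limma with no trend or with robust estimation, a fit to annotated genes only, a block for the replicate number, and the removal of single libraries. The study calls the replicates biological, but the labels do not tie them to separate plants, so p-values measure the spread between these libraries.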

Additional observations from a re-analysis of the deposited data

How the results depend on the processing

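The count of 3 called neighbours, all lower, was 2 to 4 with a pseudocount of 0.01, either other filter, either scaling, no trend, robust estimation or annotated genes only. Of all genes tested in these fits, 5.22% (no filter) to 6.14% (scaling by median ratios) were called. Counts of 4, with no filter or no trend, added Gh_A12G1540, which was chosen after its values were seen. That gene had 0.18, 0.28 and 0.12 FPKM in Xu142 and 0, 0.05 and 0 FPKM in *Xu142fl*. With a pseudocount of 1 (3.40% of all genes called) the count was 1 (Gh_A12G1437), as Gh_A12G1509 then had a log2 fold change of -0.77, under 2-fold. The median of all genes moved to at most 0.05 under either scaling. With 1 library left out the count was 0 to 6, of which 0 to 5 lower and 0 to 1 higher, while 3.44% to 8.17% of all tested genes were called. Without both Xu142 replicate 2 and *Xu142fl* replicate 1, chosen after seeing the data, it was 5, all 5 lower, against 8.28% of all genes. The count at 0.001 was 0 in every alternative run. For these runs the share of all genes called at 0.001 was not worked out, so these counts have no background beside them.

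The main fit did not use the replicate numbers as pairs. The deviations of same-numbered libraries from their line means correlated at -0.246, -0.232 and 0.138. Between libraries of unlike number the values ran from -0.281 to 0.400. The highest was that of Xu142 replicate 2 with *Xu142fl* replicate 1, the libraries that stood apart on the second principal component. With 3 libraries per line, these values cannot show whether same-numbered libraries were collected or prepared together. With a replicate block 0 neighbours were called, 0 of them lower, against 2048 genes (3.63%) in the whole table, and 3 passed at 0.05. The share of all genes that passed in that fit was not worked out.

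The sign was not stable in genes near 0. Gh_A12G1502 and Gh_A12G1531 had log2 fold changes of 0.14 and 0.00 under quantile normalization. With 1 library left out, the values ran from -0.10 to 0.03 in Gh_A12G1502, from -0.77 to 0.29 in Gh_A12G1507, from -0.19 to 0.00 in Gh_A12G1481, from -0.15 to 0.14 in Gh_A12G1527 and from -0.11 to 0.10 in Gh_A12G1531. Without both libraries named above, Gh_A12G1507, Gh_A12G1527 and Gh_A12G1531 had 0.07, 0.09 and 0.07. None of these genes passed the test in any of these fits. The cause was not tested. The files hold no counts, so the limit that depth sets on low genes is unknown.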
